A study of Mus musculus with 8 samples.

Results

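The genes described here are 10 genes that mark mast cells and basophils: Mcpt1, Mcpt2, Mcpt4, Cma1, Tpsb2, Tpsab1, Cpa3, Fcer1a, Ms4a2 and Mcpt8. They were chosen by name, and their probes were found through the RefSeq accession of each spot. Of the 10 genes, 9 had a probe found in this way, and these 9 passed the filter on low signal, beside 28992 genes or unnamed transcripts that passed it in all. For Tpsab1 the RefSeq table used here lists a transcribed pseudogene, and no probe carried its accession, so no value is given. That table describes the reference mouse strain, which is not BALB/c, so the state of this gene in these mice was not tested. A probe with an older accession, which has no name here, was left unused. Whether that probe reads Tpsab1 was not tested. Ms4a2 had 2 probes and each other gene 1, and the brightest probe stands for a gene.

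Lung RNA came from 8 female BALB/c mice, bought at 4 weeks of age, kept for 2 weeks and then fed freely for 70 days. NT mice (n = 2) ate the standard feed and met no ovalbumin (OVA). Ctrl-F mice (n = 2) ate the same standard feed, Cap-F mice (n = 2) a feed with control particles of carbonate apatite, and ODNcap-F mice (n = 2) a feed with such particles that carried a CpG-oligodeoxynucleotide. Mice of the last 3 groups were sensitized with OVA on alum by intraperitoneal injection and then breathed an OVA aerosol, and lungs were taken the day after the last aerosol. NT therefore differs from the other groups in sensitization and in challenge together. The sources used here do not say from which of the repeat experiments each mouse came, so p-values measure the spread between these 8 lungs.

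Mast cells store chymases, tryptases and carboxypeptidase A3 on a proteoglycan core in their granules. Allergen that cross-links IgE on the high-affinity receptor FceRI makes mast cells and basophils release these granules along with histamine and lipid mediators. In the mouse, connective tissue mast cells carry Mcpt4, Cma1 (mast cell protease 5), the tryptases and Cpa3, mucosal mast cells carry Mcpt1 and Mcpt2, and Mcpt8 is a protease of basophils.

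Array values below are log2 signals after quantile normalization over the 8 arrays, so a step of 1 is a 2-fold change. The 2 values of a group are given as mouse 1 and mouse 2, and they have no order across groups. All arrays entered 1 limma fit. A call needed both a fold change over 2 and an adjusted p under 0.05 (Benjamini-Hochberg, over all kept probes). The share of probes well above background ran from 61.3% to 65.0% over the arrays, no spot was saturated, and the lung genes Sftpc and Scgb1a1 had log2 signals of 17.52 to 17.64. The single slide held NT with Ctrl-F in its row 1 and the particle-fed groups in its row 2, so slide row and group cannot be told apart in a comparison across rows. NT and Cap-F held columns 1 and 2, and Ctrl-F and ODNcap-F columns 3 and 4. Slide column and group therefore cannot be told apart in a comparison within a row. The number of arrays limits the precision.

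The upstream sequences of 5 members are shown first, because genes that moved and genes that did not lie close together on chromosome 14. Each is the 250 bases before the annotated start, from RefSeq (GRCm38.p6), written 5′ to 3′ on the strand of the gene, and capitals mark GATAA or its reverse complement TTATC, the core letters that GATA factors read. The promoter table held 7 of the 10 members. The stretches are Mcpt1 (chr14:56017714-56017963, plus strand), Mcpt4 (chr14:56062311-56062560, minus strand), Cma1 (chr14:55944676-55944925, minus strand), Mcpt8 (chr14:56085198-56085447, minus strand) and Cpa3 (chr3:20242182-20242431, minus strand).
Mcpt1: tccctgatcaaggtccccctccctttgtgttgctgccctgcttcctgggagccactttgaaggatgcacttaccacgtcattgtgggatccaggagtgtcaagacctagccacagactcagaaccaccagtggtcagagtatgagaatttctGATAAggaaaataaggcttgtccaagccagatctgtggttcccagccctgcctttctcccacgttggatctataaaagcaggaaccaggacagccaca
Mcpt4: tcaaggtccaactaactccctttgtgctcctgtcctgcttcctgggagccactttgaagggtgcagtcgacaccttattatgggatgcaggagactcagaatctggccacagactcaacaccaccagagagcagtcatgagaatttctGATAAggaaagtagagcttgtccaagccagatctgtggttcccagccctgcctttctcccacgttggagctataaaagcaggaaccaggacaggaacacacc
Cma1: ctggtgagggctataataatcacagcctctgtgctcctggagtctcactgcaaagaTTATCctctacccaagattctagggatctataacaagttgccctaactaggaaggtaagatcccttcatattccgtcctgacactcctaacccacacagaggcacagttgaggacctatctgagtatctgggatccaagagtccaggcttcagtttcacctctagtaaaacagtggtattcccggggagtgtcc
Mcpt8: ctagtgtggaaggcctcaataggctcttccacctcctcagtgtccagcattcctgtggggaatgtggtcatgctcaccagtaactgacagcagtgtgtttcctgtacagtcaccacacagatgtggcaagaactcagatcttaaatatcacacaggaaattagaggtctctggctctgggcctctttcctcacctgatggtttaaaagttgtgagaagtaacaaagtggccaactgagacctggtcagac
Cpa3: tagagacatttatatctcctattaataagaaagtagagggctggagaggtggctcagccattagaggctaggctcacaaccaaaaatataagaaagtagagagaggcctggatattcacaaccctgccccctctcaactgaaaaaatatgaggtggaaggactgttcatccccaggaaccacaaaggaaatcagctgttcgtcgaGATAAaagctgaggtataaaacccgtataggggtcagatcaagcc

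Mcpt1 and Mcpt4 shared 213 of these 250 bases in a global alignment (85.2%), with an unbroken shared run of 53 bases. The other pairs among the 7 members had 55.2% to 65.6% in the same alignment, and the longest run shared by any of them was 11 bases. GATAA, searched on both strands, was found in 6 of the 7 stretches and in 23.0% of 27025 gene promoters of this length. It began 98 bases before the start in Mcpt1, 102 in Mcpt4 and 45 in Cpa3, on the strand of the gene, and 194 bases before the start in Cma1, on the opposite strand. Mcpt8 held no GATAA in this window. CACATG, an E-box, was found in 1 of the 7, Fcer1a (12.2% of all promoters), and CACGTG in 0 of the 7 (6.05%). These are matches of letters and say nothing of binding in these lungs.

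In measured signal, mucosal mast cell chymases and Mcpt4 rose most in the OVA-challenged lungs, Cpa3 and Fcer1a rose less, and Cma1, Tpsb2, Ms4a2 and Mcpt8 were not called. The rank of Mcpt2 rests on NT signals not well above background. With another background correction (normexp) its log2 fold change was 0.83, and that of Cpa3 was 0.81. Taking the mean of the 3 OVA-challenged groups against NT, 5 of 9 members were called higher and 0 lower, where 10% of all genes were called higher and 11.2% lower. The median log2 fold change was 1.05 over the 9 members and -0.12 over all genes. Of these 9, Mcpt1 and Mcpt2 passed the filter on low signal only through OVA-challenged groups, so their call was open to that filter. Of all genes that passed in this way, 73.7% were called higher. The other 7 members were well above background on all 8 arrays. Of these 7, 3 were called higher, where 7.64% of the genes well above background in both NT mice were. The members were chosen with earlier results of these data known, so these shares are a description.

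**Figure D1:**
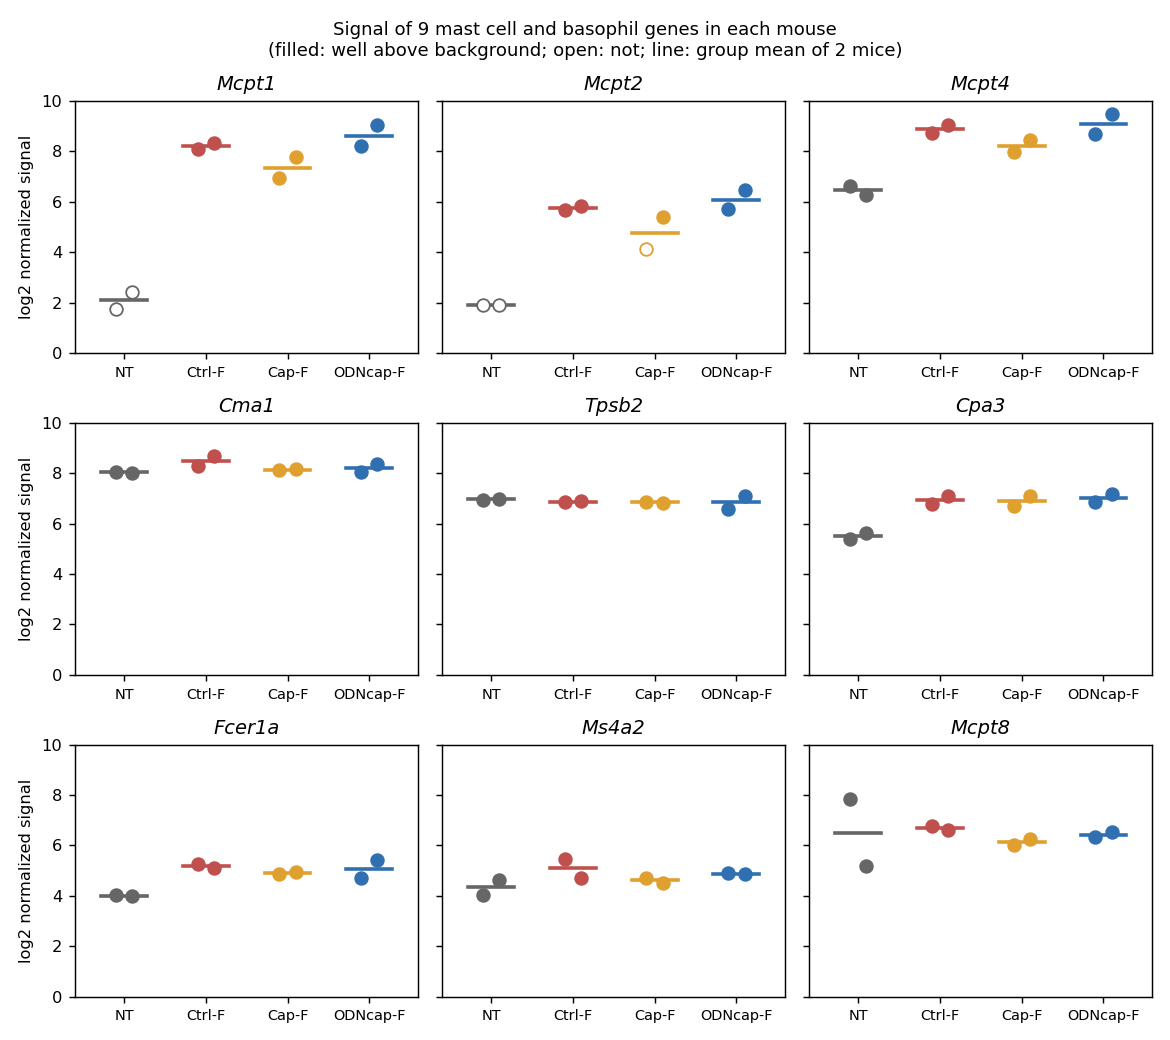
Log2 normalized signal (vertical axis) of the 9 measured members in each mouse, by group (horizontal axis). Each point is 1 mouse, filled where the probe was well above background, and the line is the mean of 2 mice. Mcpt1, Mcpt2, Mcpt4, Cpa3 and Fcer1a lie higher in all 6 OVA-challenged mice than in both NT mice, and the 2 NT mice lie far apart for Mcpt8.

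Mcpt1 (NM_008570), the mucosal mast cell chymase mMCP-1, had the largest change of the members. Its log2 signal was 1.74 and 2.44 in NT, then 8.08 and 8.35 with Ctrl-F, 6.95 and 7.76 with Cap-F, and 8.21 and 9.02 with ODNcap-F. Both NT values were not well above background, and all 6 OVA-challenged mice were. Set against the lowest signal well above background on the NT arrays, Mcpt1 was at least 21.6-fold higher in the OVA-challenged groups (measured log2 means 8.06 and 2.09, limma adjusted p = 3.74e-05). The same bound was at least 24.1-fold in Ctrl-F, 13.2-fold in Cap-F and 31.8-fold in ODNcap-F.

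Mcpt2 (NM_008571), the other mucosal chymase-family protease, followed the same pattern at a lower signal. Its log2 signal in NT was 1.89 and 1.90, then 5.66 and 5.83 with Ctrl-F, 4.13 and 5.39 with Cap-F, and 5.70 and 6.45 with ODNcap-F. Both NT values and that of Cap-F mouse 1 were not well above background. Mcpt2 was at least 3.74-fold higher in the OVA-challenged groups (measured log2 means 5.53 and 1.90, limma adjusted p = 0.000285), with 5 of the 6 mice well above background. It lost this call under normexp background correction, which adds 50 to every signal before the log, at a log2 fold change of 0.83. Mcpt1 kept its call there at 2.39. Neither gene is in the log2 table that the authors deposited.

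Mcpt4 (NM_010779), a chymase of connective tissue mast cells, was measurable in NT and rose too. Its log2 signal was 6.63 and 6.26 in NT, then 8.72 and 9.05 with Ctrl-F, 7.95 and 8.46 with Cap-F, and 8.69 and 9.49 with ODNcap-F. Every OVA-challenged mouse was above both NT mice, at a log2 fold change of 2.28 (SE 0.26, 4.86-fold, limma adjusted p = 0.000519). Within a lung, Mcpt1 gained on Mcpt4 by at least 1.82 to 2.36 on the log2 scale in the 6 OVA-challenged mice, with the NT signals of Mcpt1 set at their bound. This is given without a test, since Mcpt1 was not measured above background in NT.

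Cma1 and Tpsb2, which encode mast cell protease 5 and the tryptase mMCP-6 of connective tissue mast cells, had a signal in NT and no called change. Cma1 had log2 signals of 8.05 and 8.01 in NT, then 8.28 and 8.67 with Ctrl-F, 8.11 and 8.15 with Cap-F, and 8.04 and 8.36 with ODNcap-F. The OVA-challenged and NT ranges overlap, and the log2 difference was 0.24 (95% CI -0.08 to 0.55, limma adjusted p = 0.152). In Ctrl-F alone it was 0.44 (95% CI 0.05 to 0.83, limma adjusted p = 0.0514), under 2-fold.

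Tpsb2 had log2 signals of 6.92 and 6.99 in NT, then 6.84 and 6.90 with Ctrl-F, 6.85 and 6.83 with Cap-F, and 6.57 and 7.10 with ODNcap-F. These ranges overlap, and the log2 difference was -0.11 (95% CI -0.44 to 0.23, limma adjusted p = 0.509). Both intervals leave out a 2-fold change. Within each lung, Mcpt4 gained on Cma1 by 1.43 to 2.71 on the log2 scale, against the NT mean, in all 6 OVA-challenged mice (exact two-sided permutation of 6 mice against 2, p = 0.0714, the smallest the design allows).

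Cpa3 (NM_007753), the granule carboxypeptidase of mast cells that basophils express too, rose by nearly the same amount in each group. Its log2 signal was 5.38 and 5.61 in NT, then 6.77 and 7.11 with Ctrl-F, 6.70 and 7.11 with Cap-F, and 6.84 and 7.19 with ODNcap-F. Every OVA-challenged mouse was above both NT mice, at a log2 fold change of 1.46 (SE 0.17, 2.75-fold, limma adjusted p = 0.000546). With normexp background correction it was 0.81 and not called. Against Cpa3 in the same lung, Cma1 was 0.98 to 1.5 lower than in NT and Tpsb2 1.31 to 1.74 lower, on the log2 scale (exact two-sided permutation p = 0.0714 for each). Every OVA-challenged mouse was on the same side of both NT mice in these differences, and 0.0714 is the smallest p possible here. Mcpt4 gained on Cpa3 by 0.30 to 1.35, barely clear of the higher NT mouse at 0.30. Fcer1a against Cpa3 overlapped, at -0.66 to -0.02 in OVA-challenged mice and -0.14 to 0.14 in NT (exact two-sided permutation p = 0.143). How often other gene pairs separate in this way is not given here.

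Fcer1a and Ms4a2 encode the chains of FceRI that are found with it in mast cells and basophils, the IgE-binding alpha chain and the signal-amplifying beta chain. Fcer1a had log2 signals of 4.02 and 3.98 in NT, then 5.26 and 5.10 with Ctrl-F, 4.87 and 4.96 with Cap-F, and 4.71 and 5.41 with ODNcap-F. Every OVA-challenged mouse was above both NT mice, at a log2 fold change of 1.05 (SE 0.18, 2.07-fold, limma adjusted p = 0.00276). This lies close to the 2-fold limit. It fell under that limit without ODNcap-F mouse 2 (0.93), with scaling to the 75th percentile (0.92), in the deposited log2 table (0.75) and with normexp (0.23), and it was not called then.

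Ms4a2 had log2 signals of 4.03 and 4.64 in NT, then 5.47 and 4.72 with Ctrl-F, 4.70 and 4.53 with Cap-F, and 4.90 and 4.85 with ODNcap-F. The OVA-challenged and NT ranges overlap, and the log2 difference was 0.53 (95% CI -0.05 to 1.11, limma adjusted p = 0.0928). In Ctrl-F alone it was 0.76 and not called (limma adjusted p = 0.0621), but was called at 1.07 without NT mouse 2 and at 1.13 without Ctrl-F mouse 2. A second probe of Ms4a2 lay between 1.69 and 1.73 and was well above background on 0 of 8 arrays, so the probes of this gene disagree.

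Mcpt8 (mMCP-8), the basophil protease, was set apart by the NT mice. Its log2 signal was 7.83 and 5.19 in NT, then 6.76 and 6.62 with Ctrl-F, 6.03 and 6.27 with Cap-F, and 6.32 and 6.54 with ODNcap-F. All 6 OVA-challenged mice lay between the 2 NT mice. The NT mice differed by 2.64, a distance that 16 of 28992 genes reached or passed (0.0552%, Mcpt8 included), where the median distance was 0.11. The log2 difference between the OVA-challenged groups and NT was -0.09 (SE 0.63, limma adjusted p = 0.911), and its direction rested on the NT mice. It was 1.23 without NT mouse 1 (limma adjusted p = 0.00221) and -1.41 without NT mouse 2 (limma adjusted p = 0.00165), and was called both times, in opposite directions. The lone NT mouse is assumed there to vary like the mice of the other groups.

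NT mouse 1 was also above NT mouse 2 in the granulocyte genes Ctsg, Prss34 and Prg2, named here after their values were seen, but not in all markers of eosinophils. Ctsg, cathepsin G of neutrophils and mast cells, had log2 signals of 6.17 and 4.85 in NT and 4.11 to 5.27 in the OVA-challenged mice. Prss34, the basophil protease mMCP-11, had 5.52 and 5.0 in NT and 4.62 to 4.83 in the OVA-challenged mice. Prg2, an eosinophil granule protein, had 7.68 and 6.28 in NT. The eosinophil receptors Siglecf, at 9.94 and 10.03, and Ccr3, at 6.30 and 6.63, were lower in NT mouse 1, and the ribonucleases Ear1 (12.41 and 12.28) and Ear2 (14.30 and 14.25) differed little. Averaged over all 8 eosinophil markers, the log2 signal was higher in NT mouse 1 (8.74 against 8.32). Summed markers of B cells (9973 against 7155) and T cells (6026 against 4737) were higher there too. So were those of cardiomyocytes (33315 against 16372) and adipocytes (4632 against 3361). The sum for cartilage (657 against 730) was lower. Sums for airway basal cells (3970 against 3863) and lung tissue (652887 against 654185) differed little. Their mean log2 signals went the other way (7.61 against 7.79 and 14.78 against 14.76), so no direction is read for them. The NT mice thus differed beyond granulocyte genes. Cd200r3, a receptor of basophils and mast cells, was not well above background in NT. It was at least 2.36-fold higher in the OVA-challenged groups (measured log2 means 4.86 and 2.94, limma adjusted p = 0.00199). Of these basophil genes Cd200r3 was called higher, and Mcpt8 and Prss34 (log2 fold change -0.53, limma adjusted p = 0.0159) were not called.

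The calls for single groups against NT differed by 1 member. Ctrl-F had 5 of 9 members called higher (10.5% of all genes), Cap-F 4 (9.74%) and ODNcap-F 5 (9.86%), and 0 were called lower in each. Mcpt1, Mcpt2, Mcpt4 and Cpa3 were called in all 3 groups. Fcer1a was called in Ctrl-F at a log2 fold change of 1.18 and in ODNcap-F at 1.06, and in Cap-F it had 0.91 and an adjusted p of 0.0136 in limma. These comparisons share the 2 NT mice. In the exact permutation of 6 mice against 2, Mcpt1, Mcpt2, Mcpt4, Cpa3 and Fcer1a each had p = 0.0714, the smallest the design allows, since the measured signals of their groups do not overlap. That held for 5 of 9 members and for 28.9% of all genes. Mcpt1 and Mcpt2 passed the filter only through OVA-challenged groups, so their separation from NT was open to that filter. In bulk lung RNA, more cells of a type and more RNA per cell cannot be told apart.

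**Figure D2:**
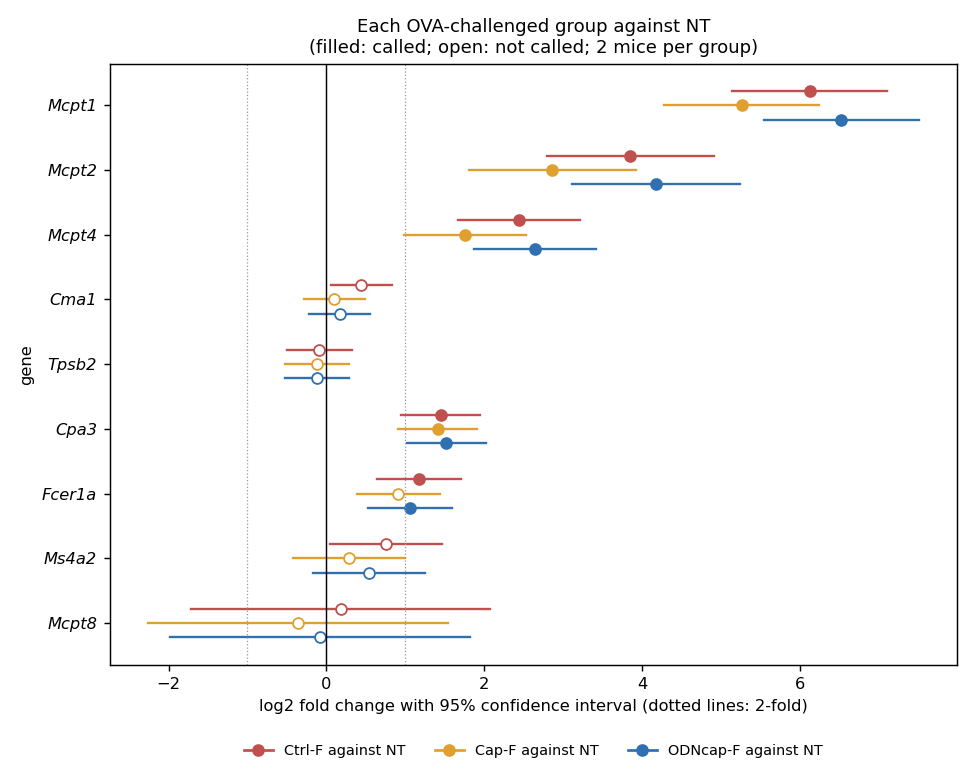
Log2 fold change (horizontal axis) of each member in each OVA-challenged group against NT, with the 95% confidence interval of the limma fit. Filled points were called and dotted lines mark 2-fold. Mcpt1, Mcpt2, Mcpt4 and Cpa3 were called in all 3 groups, and the intervals of Mcpt8 are the widest. The points of Mcpt1 and Mcpt2 use NT signals not well above background, so the text gives bounds for these genes.

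Markers of other cell types moved in the same comparison, and their part in the values above was not tested. Of 8 eosinophil markers, 6 were called higher, and their summed linear signal was 26249 to 27462 in NT and 54618 to 71418 in the OVA-challenged mice. Of 4 B cell markers all were called higher (7155 to 9973 in NT, 29145 to 40984 in OVA-challenged mice), and of 6 T cell markers 1 was (4737 to 6026, and 7200 to 8980). Of 8 cardiomyocyte markers 1 was called lower. Their summed signal was 16372 to 33315 in NT, 5423 to 6818 in Ctrl-F, 5550 and 18280 in the Cap-F mice, and 13972 to 20800 in ODNcap-F. Of 6 adipocyte markers 2 were called lower and 1 higher, and their sum was 3361 to 4632 in NT, 727 to 1012 in Ctrl-F, 731 to 2477 in Cap-F and 2022 to 3516 in ODNcap-F. Of 8 cartilage markers 3 passed the filter and 2 were called higher (657 to 730 in NT, 1387 to 2176 in OVA-challenged mice). Of 8 lung tissue markers 3 were called lower, and of the 3 airway basal cell markers that passed the filter 0 were called.

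No member was called between feeds among OVA-challenged mice, while Mcpt1, Mcpt2 and Mcpt4 were lowest in the Cap-F mice. The question here was whether the feed, with or without the CpG-oligodeoxynucleotide, went with other levels of these genes. For ODNcap-F against Ctrl-F 0 of 9 members were called in limma (0% of all genes), and 0 reached an unadjusted p under 0.05. The local-pooled-error test called 0 members (0.452% of all genes, either way). The log2 difference was 0.40 for Mcpt1 (95% CI -0.58 to 1.38), 0.21 for Mcpt4 (95% CI -0.57 to 0.98) and 0.07 for Cpa3 (95% CI -0.43 to 0.57). The interval of Cpa3 leaves out a 2-fold change, and those of Mcpt1 and Mcpt2 do not.

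For Cap-F against Ctrl-F, 0 of 9 members were called in limma (0.00345% of all genes, either way), and 0 reached an unadjusted p under 0.05 there. The local-pooled-error test called 0 members (0.483% of all genes, either way). That test, which takes the spread of a probe from other probes of similar level, gave Mcpt1 and Mcpt4 adjusted p of 0.00387 and 0.0344. Both changes were under 2-fold. The log2 difference was -0.86 for Mcpt1, -0.98 for Mcpt2 and -0.67 for Mcpt4, with limma adjusted p of 0.354, 0.334 and 0.356. In 7 of 9 members both Cap-F mice lay below both Ctrl-F mice, where 25.8% of all genes did so. The exceptions were Cpa3 and Tpsb2. These members were read on the same 4 arrays, so they are not separate tests, and the comparison crosses the slide rows.

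ODNcap-F and Cap-F shared a slide row but held different columns of it. Here 0 of 9 members were called in limma (0.00345% of all genes, either way), and 3 were higher at an unadjusted p under 0.05 (5.98% of all genes). These were Mcpt1 at a log2 difference of 1.26 (SE 0.40, unadjusted p = 0.0200 and adjusted p = 0.314 in limma), Mcpt2 at 1.31 (SE 0.43, 0.0231 and 0.326) and Mcpt4 at 0.88 (SE 0.32, 0.0316 and 0.350). For Mcpt2, 1 of the 2 Cap-F mice was well above background. The local-pooled-error test, which the study's methods name, called Mcpt1 and Mcpt2 (adjusted p = 2.96e-06 and 0.0314) and 0.235% of all genes higher. Mcpt4 had an adjusted p of 0.00382 in that test, at a change under 2-fold. In 5 of 9 members both ODNcap-F mice lay above both Cap-F mice, where 21% of all genes did so. Without Cap-F mouse 1 the log2 difference was 0.86 for Mcpt1, 0.68 for Mcpt2 and 0.63 for Mcpt4. Without ODNcap-F mouse 2 it was 0.85, 0.94 and 0.48.

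**Figure D3:**
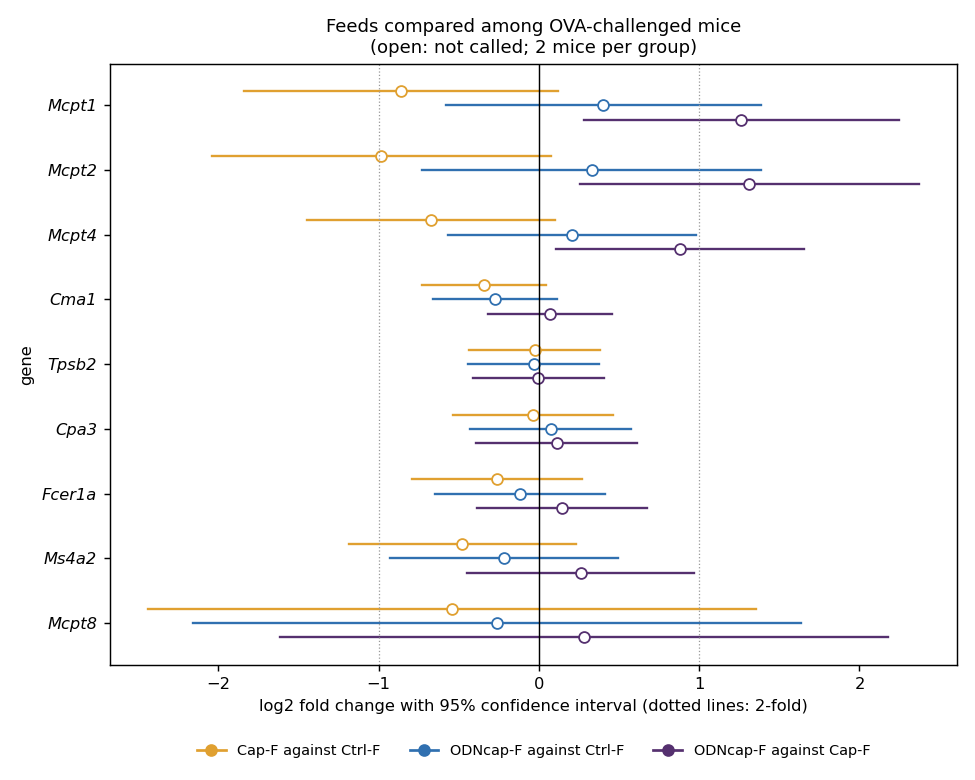
Log2 fold change (horizontal axis) of each member between the feeds of OVA-challenged mice, with the 95% confidence interval of the limma fit. All points are open because no member was called. The points for ODNcap-F against Cap-F lie to the right of 0 for Mcpt1, Mcpt2 and Mcpt4, with intervals that leave out 0 before adjustment, and those of Cpa3, Cma1 and Tpsb2 lie near 0.

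Mcpt1, Mcpt2 and Mcpt4 varied in nearly the same order among the OVA-challenged mice, and Cma1 did not. Mcpt1 spanned 2.07 on the log2 scale over the 6 mice, Mcpt2 2.32 and Mcpt4 1.54, while Cpa3 spanned 0.49, Tpsb2 0.53 and Cma1 0.63. The lowest Mcpt2 signal, of Cap-F mouse 1, was not well above background, so its span rests in part on an unmeasured level. Cap-F mouse 1 was lowest and ODNcap-F mouse 2 highest for Mcpt1, Mcpt2, Mcpt4 and Cpa3, while ODNcap-F mouse 1 was lowest and Ctrl-F mouse 2 highest for Cma1. Mcpt1 and Mcpt2 placed the 6 mice in the same order, and Mcpt4 exchanged only Ctrl-F mouse 1 and ODNcap-F mouse 1. The difference between Mcpt1 and Mcpt4, both well above background in all 6 mice, spanned 0.54. These genes are close relatives, and hybridization of a transcript to the probe of another was not tested. Cap-F mouse 1 also had less signal of cardiomyocyte markers (5550, against 18280 in Cap-F mouse 2) and of adipocyte markers (731 against 2477), whose part in its chymase values was not tested.

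Mcpt1, Mcpt2, Mcpt4, Mcpt8 and Cma1 lie in 1 stretch of chromosome 14 with granzymes and cathepsin G, and its genes changed unequally. This stretch was chosen after the data had been seen. From Cma1 to Gzmb the RefSeq order holds 15 protein-coding genes, all with a probe. Of these, 9 passed the filter, and 4 were called higher in the OVA-challenged groups than in NT (10% of all genes were), Mcpt1, Mcpt2, Mcpt4 and Gzmc. None was called lower. Mcpt1, Mcpt2 and Gzmc passed the filter only through OVA-challenged groups, and 73.7% of all genes that passed in this way were called higher. Of the 6 genes that both NT mice showed well above background 1 was called, Mcpt4 (7.64% of all genes so measured in NT were called higher). Mcpt9, which lies between Mcpt2 and Mcpt4, and the granzymes Gzme, Gzmd, Gzmg, Gzmn and Gzmf did not pass the filter. Cma2, next to Cma1, had a log2 fold change of 0.72 (SE 0.10, limma adjusted p = 0.00127), under 2-fold. Gzmb, the cytotoxic granzyme B at the far end, had -0.27 (limma adjusted p = 0.0831).

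**Figure D4:**
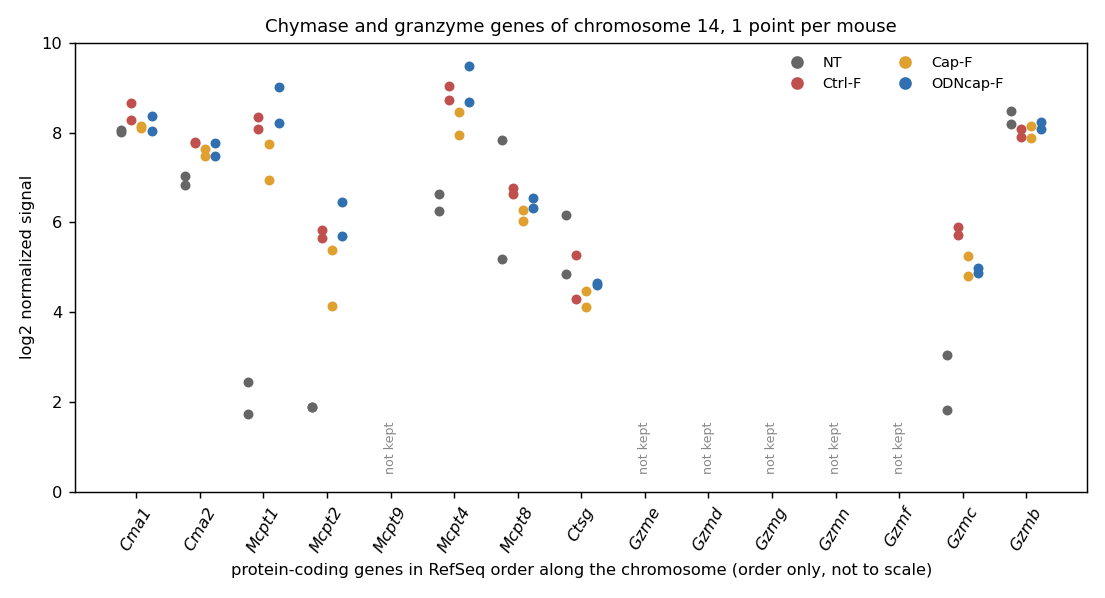
Log2 normalized signal (vertical axis) of the protein-coding genes from Cma1 to Gzmb in their RefSeq order on chromosome 14, 1 point per mouse, coloured by group. NT points lie far below the other groups for Mcpt1, Mcpt2, Mcpt4 and Gzmc, and close to, among or above them for Cma1, Mcpt8, Ctsg and Gzmb. NT signals of Mcpt1, Mcpt2 and Gzmc were not well above background, and 6 genes did not pass the filter on low signal.

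Other genes of the mast cell and basophil pathway were followed in 6 lists of 68 genes. Of these, 63 passed the filter, and in the OVA-challenged groups against NT 29 were called higher (46.0%, against 10% of all genes), 3 lower (4.76%, against 11.2%) and 31 not called. Of the 63, 6 passed the filter only through OVA-challenged groups, Gzmc, Tph1, Hpgds, Il13, Il6 and Cd200r3. All 6 were called higher, as were 73.7% of all genes that passed in this way, so this count was largely set by the filter. Among the other 57, which both NT mice showed well above background, 23 were called higher (40.4%, against 7.64% of all genes so measured in NT). Many of them are expressed by other leukocytes too, and the markers of those cells rose as given above. The lists were chosen with earlier results of these data known, so these shares are a description and no independent test. Between feeds 0 of the 63 were called in limma in each of the 3 comparisons.

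Among other granule proteins and enzymes of amine storage, 10 of 12 passed the filter, 3 were called higher and 7 not called. Srgn, serglycin, the proteoglycan core of the granule, had log2 signals of 13.09 and 13.21 in NT and 14.24 to 14.50 in the OVA-challenged mice, a log2 fold change of 1.23 (SE 0.07, limma adjusted p = 3.73e-05). Gzmc, a granzyme, was at least 3.10-fold higher (measured log2 means 5.26 and 2.43, limma adjusted p = 0.000513). Tph1, the first enzyme of serotonin synthesis, was at least 1.54-fold higher (measured log2 means 4.25 and 2.46, limma adjusted p = 6.43e-05). Only 2 of 6 OVA-challenged mice were well above background. Its bound is under 2-fold, so the call of Tph1 rests on signals not well above background. Hdc, histidine decarboxylase, which makes histamine, had a log2 fold change of 0.74, under 2-fold (limma adjusted p = 0.000150). The NT signals of Gzmc and Tph1 were not well above background.

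Of the IgE receptor gamma chain and signalling genes all 14 passed the filter, 8 were called higher and 6 not called. Fcer1g, the gamma chain that FceRI shares with other Fc receptors, had a log2 fold change of 1.16 (SE 0.08, limma adjusted p = 6.92e-05) and is named for its role. The smallest p-values were those of Plcg2 (phospholipase C gamma 2) at 2.09, Lat2 (an adaptor of mast cells and B cells) at 2.93, Lcp2 (the adaptor SLP-76) at 1.48 and Btk (a kinase of B cells and mast cells) at 2.44. Lyn and Fyn, kinases at the start of the FceRI signal, were not called, at 0.09 and -0.21.

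Of the growth factors, alarmins and their receptors, 12 of 13 passed the filter, 5 were called higher, 2 lower and 5 not called. Il33, the alarmin of damaged epithelium, had a log2 signal of 10.93 ± 0.10 in NT (SD, n = 2) and 12.83 to 13.29 in the OVA-challenged mice, a log2 fold change of 2.09 (SE 0.11, limma adjusted p = 3.33e-05). Its receptor Il1rl1 (ST2) had 1.96, and the receptor chains Csf2rb and Csf2rb2 had 1.91 and 1.87. Tslp, an epithelial alarmin, fell by 1.93 and Kitl, stem cell factor, by 1.01. Kit, the receptor of stem cell factor on mast cells and also on some lung endothelial cells, had -0.91 (SE 0.15, limma adjusted p = 0.00233), under 2-fold. Il9, a growth factor of mucosal mast cells, did not pass the filter, while its receptor Il9r was called higher at 3.02.

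Of the lineage transcription factors all 9 passed the filter, 3 were called higher, 1 lower and 5 not called. Gata1 had a log2 fold change of 1.71 (SE 0.11, limma adjusted p = 6.68e-05), Spi1 (PU.1) 1.86 and Ikzf1 (Ikaros) 1.08. Gata2, needed for mast cells and basophils and also expressed in endothelium, fell by 1.53 (SE 0.19, limma adjusted p = 0.000719). The endothelial marker Cldn5 fell by 1.17 in the same comparison (limma adjusted p = 0.000206), and its part in the values of Kit and Gata2 was not tested. Mitf, a regulator of mast cell proteases, had 0.72 and was not called.

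Of the lipid mediator enzymes and cytokines all 11 passed the filter, 8 were called higher and 3 not called. The smallest p-values were those of Il4 at a log2 fold change of 3.85, Osm (oncostatin M) at 2.12, Il6 at 3.62 and Ptgs1 (cyclooxygenase 1) at 1.38. For Il6, 1 of the 2 NT mice was well above background, so its value depends on a signal below it. Hpgds, which makes the mast cell mediator prostaglandin D2, was at least 3.06-fold higher (measured log2 means 5.24 and 2.62, limma adjusted p = 0.000128). Ltc4s, leukotriene C4 synthase, had 0.39 and was not called. Of the surface receptors and integrins, 7 of 9 passed the filter, 2 were called higher and 5 not called. Adora3, the adenosine receptor that triggers mouse mast cells, had 2.40 (SE 0.08, limma adjusted p = 8.32e-06), and the other was Cd200r3. Mrgprb2, a receptor of connective tissue mast cells, did not pass the filter.

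**Figure D5:**
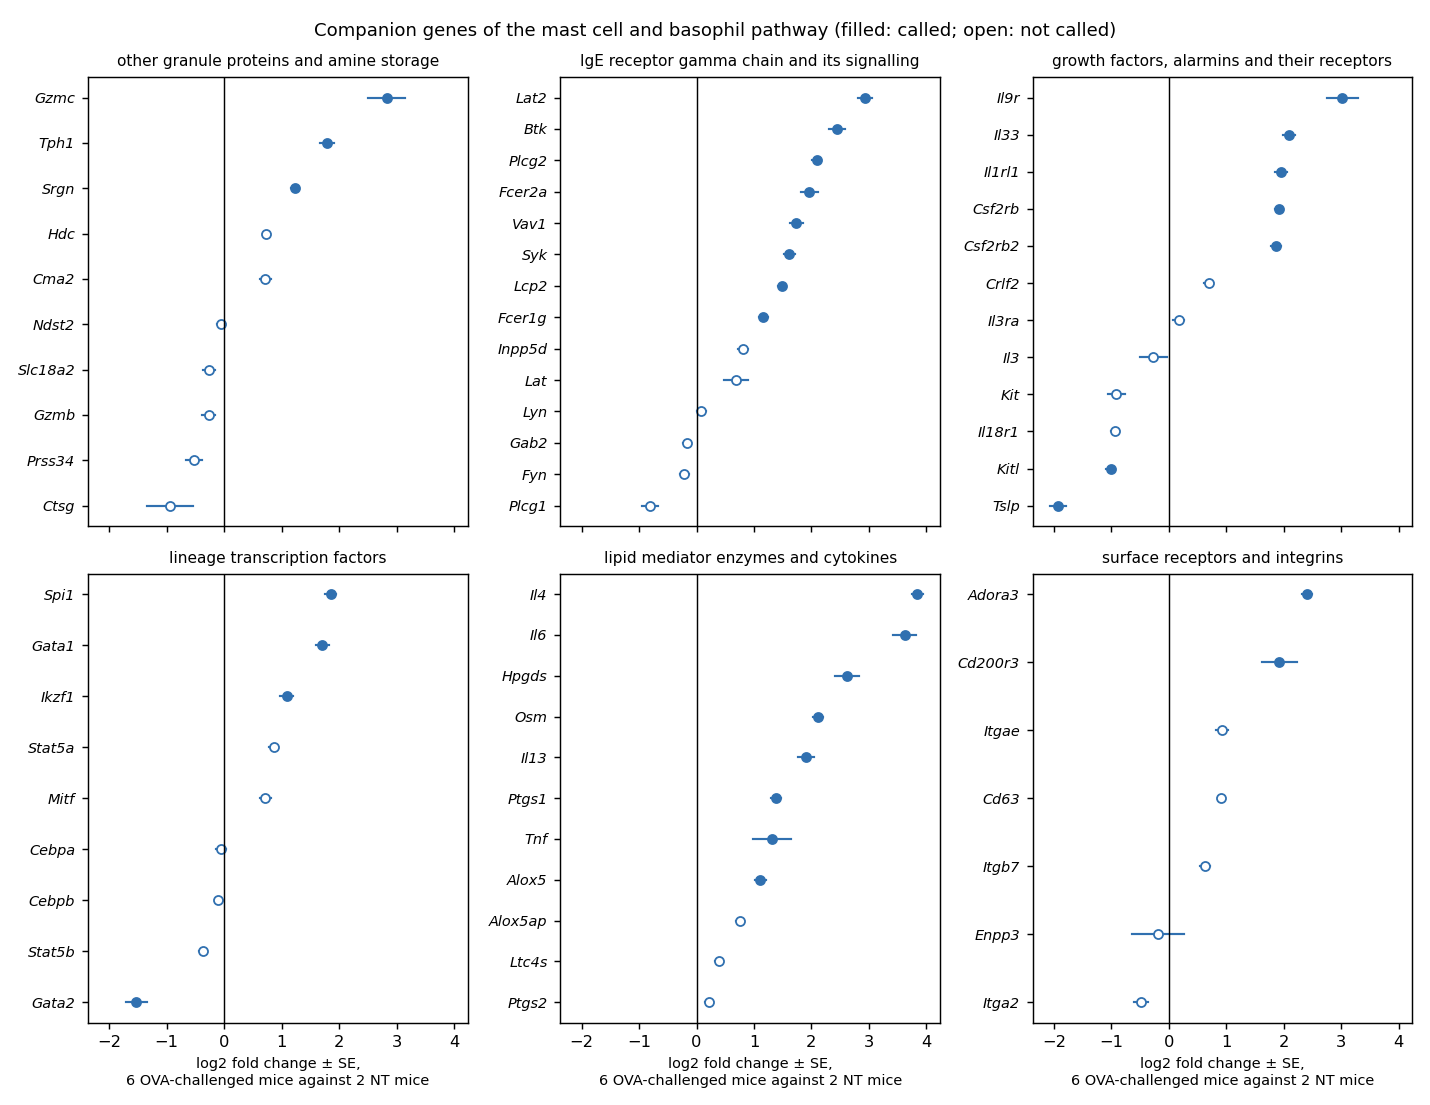
Log2 fold change with its standard error (horizontal axis) of the 63 companion genes in the OVA-challenged groups against NT, by list. Filled points were called, and the points of Gzmc, Tph1, Hpgds, Il13 and Cd200r3 use NT signals not well above background. The lists of IgE receptor signalling and of lipid mediators and cytokines hold 8 filled points each on the right, and Tslp, Kitl and Gata2 are the filled points on the left.

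The genes whose pattern over the 8 arrays was most like a member's were taken from 3856 named genes with an SD of at least 0.5. For Mcpt1 these were Omp, Cd209d and Sprr2k, with Pearson r of 0.997, 0.997 and 0.996. Cd209d had log2 signals of 7.83 and 7.99 in NT and 10.18 to 11.34 in the OVA-challenged mice. For Mcpt4 they were Cd163, Mapk13 and Sprr2b (r of 0.991, 0.989 and 0.988), and for Cpa3 Mlph, Col2a1 and Folr2 (0.989, 0.989 and 0.988). Each of these 9 genes was higher in all 6 OVA-challenged mice than in both NT mice, the split that carries most of such an r. For Mcpt8 they were Mpo (0.964), the myeloperoxidase of neutrophils, with 4930455D15Rik and Med12l (0.875 and 0.874). Mpo lay 6.12 to 7.91 in NT and 6.87 to 7.48 in the OVA-challenged mice on the log2 scale, so its NT mice also lay on both sides of the others. These r are a description over 8 arrays of 1 slide.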

How the data were processed

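The authors deposited, for each of 8 one-color arrays, the background-subtracted intensity of every spot from Agilent Feature Extraction 11.0 with its flags and median intensities, and 1 table of log2 values, quantile normalized, for 32312 probes. Here log2 intensities of 59305 spots were averaged into 56605 probes, with 792 spot values flagged as outliers left out, and quantile normalized over the 8 arrays (limma 3.58.1, R 4.3.3). Recomputed values differed from the deposited table by a median of 0.00516 and at most 0.35. The 37116 probes that both mice of some group showed well above background entered 1 limma fit of 4 groups. Names came from RefSeq accessions, for 32994 probes. A bound sets the brighter mean against, on each NT array, the higher of the probe's own signal and the lowest signal well above background. A p-value beside a bound is that of the measured difference. Promoters were aligned with Biopython 1.88. Both tests were tested on simulated data, and the local-pooled-error test was rebuilt from its definition. Alternatives were another scaling, background correction, filter, table, variance model, probe rule, test and threshold, the replicate block, and leaving out each array. Named genes were all members, up to 4 called genes per companion list by smallest p, and the 3 most alike in pattern for 4 members. Genes outside this rule are described by role or after their values were seen. Members and lists were chosen with earlier results of these data known.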

Additional observations from a re-analysis of the deposited data

How the results depend on the processing

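Counts of members called against NT depended most on how low signals were treated. With normexp background correction, 2 members were called in Ctrl-F, 2 in Cap-F, 3 in ODNcap-F and 2 in the OVA-challenged groups together. In the deposited log2 table, which holds 7 of the 9 members and neither Mcpt1 nor Mcpt2, 2 were called in each of these 4 comparisons. Kept to probes above background on every array, also 7 members, 3, 2, 3 and 3 were called. The share of all genes called under these settings is not given here, so these lower counts are not read as particular to the members. Between ODNcap-F and Cap-F, 2 members passed an unadjusted p with a 2-fold change, and 2 the local-pooled-error test. All other alternatives, p-value and test choices included, kept each count within 1.5 times its value. With the replicate block the counts against NT were 5, 4, 5 and 5, and 0 between feeds. The numbers pair no samples by label, and the deviations of same-numbered mice correlated by -0.01 to 0.16 between groups.

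Of single members, Mcpt8 turned from -0.09 to 1.23 without NT mouse 1 and went to -1.41 without NT mouse 2, called both times. The former was named again as an alternative after seeing the data. Mcpt4 kept its call in the OVA-challenged groups in all 18 alternatives (log2 fold change 1.66 to 2.47) and Mcpt1 in the 16 that measured it (2.39 to 6.32). The cause of the lost calls of Cpa3, Mcpt2 and Fcer1a was not tested. Exact permutation was used only for 6 mice against 2, because 2 against 2 cannot pass 0.05. Signals below 3.61 on the log2 scale were never well above background.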
